A study of Mus musculus with 23 samples.

Results

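The genes described here are 9 factors that mark successive steps from a cortical progenitor to a young neuron: *Pax6*, *Sox2*, *Sox9*, *Emx2*, *Eomes*, *Sox4*, *Sox11*, *Dcx* and *Tbr1*. They were chosen by name and found by their Ensembl identifiers among the 56941 genes of the count tables. The RNA came from hippocampal neurons cultured from homozygous Nedd8cKO P0 mice, in which LoxP sites flank exons 2 and 3 of *Nedd8*. Both groups carried this allele and both received lentivirus after 1 day in vitro, encoding either red fluorescent protein (RFP, 11 libraries) or CRE recombinase tagged with RFP (CRE, 12 libraries). The question was how the RNA of these neurons changes when *Nedd8*, a ubiquitin-like modifier, is lost. RNA was taken after 12 days in culture by the sample labels, while the study's Methods gives another day. The Synapsin1 promoter drives both viral proteins and is active mainly in neurons, and recombination in the other cells of the cultures was not measured here. Age at dissection was P0 in both groups, and the sex of the pups was not checked.

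In the developing cortex, neural stem cells known as radial glia express *Pax6*, *Sox2*, *Sox9* and *Emx2*. Their neurogenic daughters, the intermediate progenitors, switch on *Eomes*. Young glutamatergic neurons then express *Sox4*, *Sox11*, *Dcx* and *Tbr1*, and the order *Pax6*, *Eomes*, *Tbr1* is a textbook sequence of cortical neurogenesis. Several of these genes stay on elsewhere: *Sox9*, *Sox2* and, in part, *Pax6* in astrocytes, and *Dcx* in the newborn neurons of the dentate gyrus.

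Libraries are named by group, by the number that the labels attach to Cre or RFP, read here as a culture, and by library number, as in CRE 1-1. The study's Methods left out CRE 1-3 and CRE 3-3, and the comparison below used the other 21 libraries, 10 CRE and 11 RFP. Their total counts ran from 7635735 to 17112815. CRE 1-3, CRE 3-3 and RFP 2-4 stood apart from the rest, since their levels rose with gene GC content (Spearman's rho 0.77, 0.63 and 0.59 over 11512 genes, against -0.17 to 0.31 in the other 20 libraries) and mitochondrial genes held 0.261%, 1.83% and 3.44% of their counts (6.997% to 11.1% in the other 20). CRE 3-3 held 1546796 counts in all, and RFP 3-2 had 24.2% of its counts on a ribosomal RNA gene, *Rn18s-rs5*. The count table in the study's supplement leaves out CRE 3-3 and RFP 3-2 instead. Values are therefore given over the 21 libraries, and over the other sets where a call among the 9 genes differs.

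*Nedd8* checked the labels. Its level was between 5.92 and 18.0 counts per 1000000 (CPM, scaled for library size and composition) in the 10 CRE libraries, with a median of 11.7, and between 44.1 and 76.0 in the 11 RFP libraries, with a median of 61.4. No CRE library reached an RFP library. Its log2 fold change from RFP to CRE was -2.41 (standard error 0.16, edgeR adjusted p = 1.79e-12). The counts cover the whole gene, exons outside the LoxP sites included, and 331 of its exon bases overlap *Gmpr2* on the opposite strand. Among genes known from hippocampal neurons, and chosen after their values had been seen, *Prox1* of dentate granule cells stood at 117 ± 20.2 CPM with RFP (SD, n = 11) and 80.8 ± 19.1 with CRE (SD, n = 10), and *Zbtb20* at 404 ± 125.5 and 277 ± 39.9. Both were lower with CRE, by log2 fold changes of -0.53 (edgeR adjusted p = 0.00107) and -0.55 (edgeR adjusted p = 0.00388), and no list of hippocampal markers was tested.

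Of the 14482 genes that passed the filter on low counts, 5492 (37.9%) differed between the groups at an adjusted p under 0.05, 2920 (20.2%) higher and 2572 (17.8%) lower in CRE libraries. Scaling by library totals alone moved the median log2 fold change of all tested genes from 0.02 to 0.13 and this split to 3810 higher and 1766 lower. Among the 9 genes, *Eomes* failed the filter, and 4 of the other 8 passed the test: *Pax6* and *Sox9* were higher, *Dcx* and *Tbr1* lower. Since 37.9% of all tested genes were called, a count of 4 among 8 sets these genes little apart from the rest, and what follows gives the size of each change and the libraries that carry it. The share of all tested genes called was 28.2% over all 23 libraries, 30.2% over the libraries of the supplement's count table, 38.0% without RFP 2-4, and 22.9% for counts summed per group and culture number. Libraries with the same culture number may share a culture, in which case p-values over libraries measure a spread that is partly technical, and the sums treat each culture as a single sample. In bulk RNA, fewer cells of a type and less RNA per cell cannot be told apart.

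**Figure D1:**
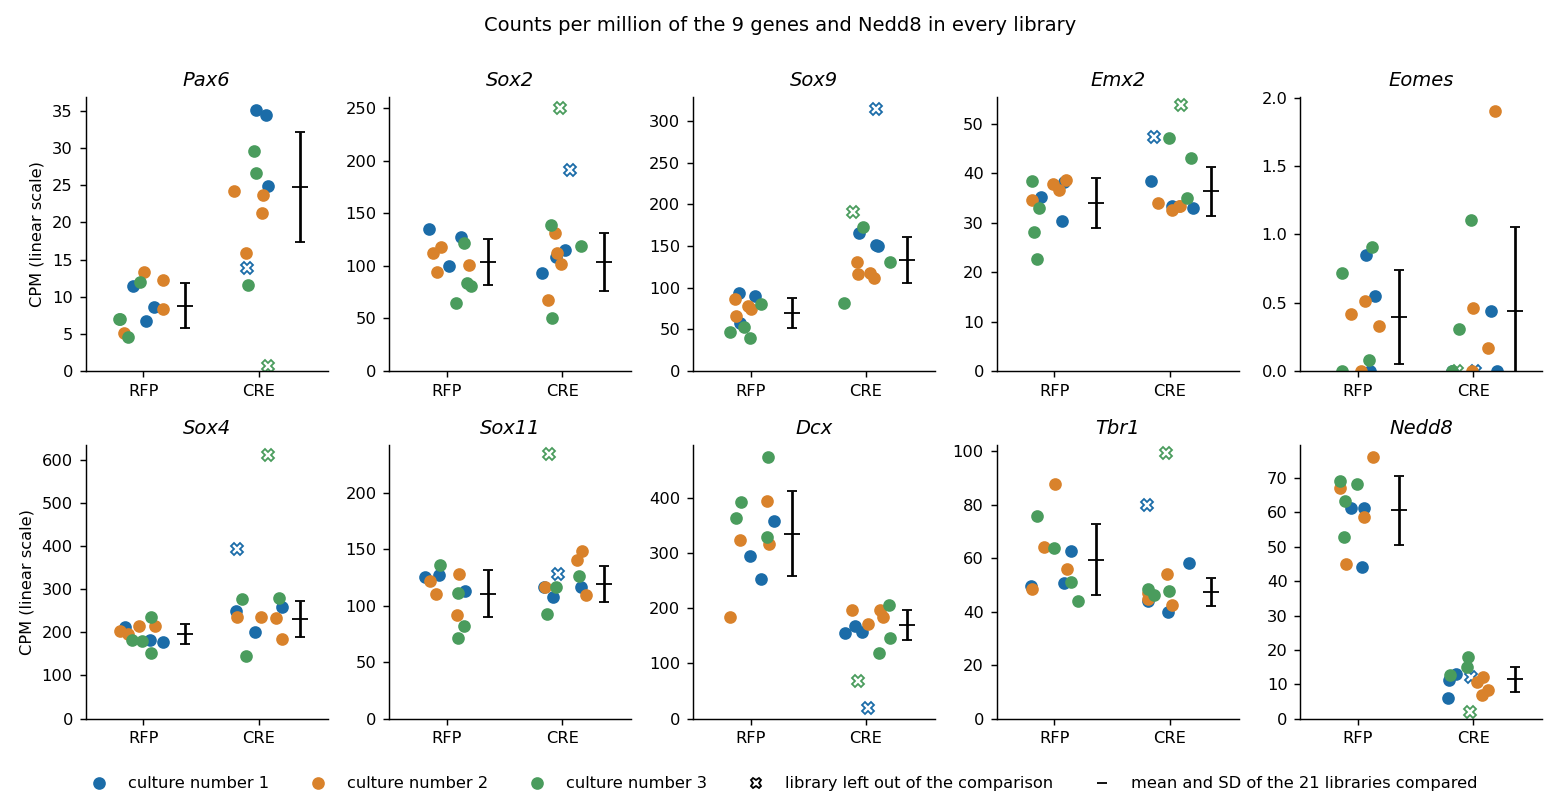
CPM (linear scale) of the 9 genes and of *Nedd8* in every library, by group, with colours for the culture number, crosses for the libraries left out, and bars for the mean and SD of the libraries compared. *Pax6* and *Sox9* sit higher in 9 of 10 CRE libraries than in any RFP library, *Dcx* sits lower in CRE libraries, and the points of *Sox2*, *Emx2*, *Eomes* and *Sox11* overlap.

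*Pax6*, which encodes a paired-box and homeodomain transcription factor of radial glia, showed the largest fold change of the 9 genes. It lies on chromosome 2 of GRCm39 from 105499234 to 105530952 on the plus strand (ENSMUSG00000027168). In the RefSeq table of promoters (build GRCm38.p6, 250 bases before to 50 after a start) it has a pair of starts, and their sequences are shown because *Pax6* moved most and because they differ in the letters they hold. Capitals mark matches, on either strand, to a T-box half-site (AGGTGT), a Sox core (AACAAT), an E-box (CANNTG) or the antioxidant response element (TGACNNNGC). The gene counts do not tell which start was used.
Pax6 upstream start, chr2:105668646-105668945, plus strand: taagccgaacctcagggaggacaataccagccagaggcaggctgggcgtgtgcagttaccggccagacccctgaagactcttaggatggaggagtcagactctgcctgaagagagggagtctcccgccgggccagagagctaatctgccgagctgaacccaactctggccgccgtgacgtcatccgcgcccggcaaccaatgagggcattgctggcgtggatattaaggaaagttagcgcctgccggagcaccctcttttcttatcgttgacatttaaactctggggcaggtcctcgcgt
Pax6 downstream start, chr2:105682213-105682512, plus strand: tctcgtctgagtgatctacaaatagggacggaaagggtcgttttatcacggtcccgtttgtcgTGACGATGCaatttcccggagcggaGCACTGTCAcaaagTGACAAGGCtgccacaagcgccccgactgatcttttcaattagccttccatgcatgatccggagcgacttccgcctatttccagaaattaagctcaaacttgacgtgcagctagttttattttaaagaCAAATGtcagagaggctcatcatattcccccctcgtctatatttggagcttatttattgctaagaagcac
The upstream window held none of these letters. The downstream window held 1 E-box match, as 72.3% of the 32851 promoters of the table did, and 3 matches to TGACNNNGC, 2 on the printed strand and 1 on the other. At least 1 such match occurred in 12.4% of promoters and at least 3 in 0.0791%, a count made after the matches had been seen.

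*Pax6* was low in these cultures. RFP libraries held between 4.54 and 13.3 CPM with a median of 8.31, and CRE libraries between 11.6 and 35.1 with a median of 24.5. All CRE libraries except CRE 3-2 lay above every RFP library. From 8.77 ± 3.04 CPM (SD, n = 11) the mean rose to 24.7 ± 7.39 (SD, n = 10), which is 2.80-fold (95% interval 2.13 to 3.69) or 1.49 on the log2 scale (standard error 0.20, edgeR adjusted p = 8.32e-07). Within cultures 1, 2 and 3 the log2 ratio of the means was 1.82, 1.12 and 1.56, and only in culture 3 did the groups overlap. Summed per culture it was 1.43 (edgeR adjusted p = 4.15e-04).

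The left-out libraries did not both show this rise. CRE 1-3 held 13.9 CPM and CRE 3-3 a single count, 0.68 CPM, and over all 23 libraries the log2 fold change of *Pax6* was 1.33 (edgeR adjusted p = 9.81e-04). An opposite-strand gene, *Elp4*, covers 3393 (21.1%) of the exon bases of *Pax6*, and the sources used here do not give the strand setting of the counting. *Elp4* itself had a log2 fold change of -0.11 (edgeR adjusted p = 0.649). In all, 39.3% of the 50-base stretches of the longest *Pax6* transcript also occur in transcripts of other genes, on either strand.

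*Sox9* encodes an HMG-box factor of neural stem cells that is also a lasting marker of astrocytes. It lies on chromosome 11 from 112673009 to 112678586 (ENSMUSG00000000567), and the promoter table has no entry for it. RFP libraries held between 40.2 and 94.0 CPM with a median of 74.5, and CRE libraries between 81.4 and 173 with a median of 131. CRE 3-2 again was the sole CRE library within the RFP range. The mean went from 69.8 ± 18.3 CPM (SD, n = 11) to 133 ± 27.7 (SD, n = 10), a 1.90-fold rise (95% interval 1.57 to 2.31) and 0.93 on the log2 scale (standard error 0.14, edgeR adjusted p = 7.47e-06).

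The rise of *Sox9* was present in each culture with no overlap of the groups, at log2 ratios of 0.95, 0.65 and 1.22 in cultures 1, 2 and 3. Sums per culture gave 0.87 (edgeR adjusted p = 0.00159). The left-out libraries held still more *Sox9*, 315 CPM in CRE 1-3 and 191 in CRE 3-3, and with both included the log2 fold change was 1.13 (edgeR adjusted p = 3.25e-05). Exons of *Sox9* share 542 bases with the opposite-strand *BC006965*, which had 139 counts over all libraries.

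Markers of astrocytes did not move as a group in the direction of *Sox9*. Of 9 listed astrocyte genes, 2 rose, the gap junction genes *Gja1* (log2 fold change 0.76, edgeR adjusted p = 0.0123) and *Gjb6* (2.16, 0.00103), and 4 fell: the glutamate transporter *Slc1a2* (-0.64, 0.00119), the folate enzyme *Aldh1l1* (-0.73, 0.00424), *S100b* (-0.96, 0.00637) and *Aldoc* (-0.72, 0.0365). Over all 23 libraries 2 of the list rose and 2 fell. Of all tested genes 20.2% rose and 17.8% fell over the 21 libraries, and 28.2% were called over all 23. The summed astrocyte level ran from 1193 to 3978 CPM in CRE and from 2512 to 6625 in RFP libraries. CRE 3-2, the lowest CRE library for *Pax6*, *Sox2*, *Sox9*, *Sox4*, *Sox11* and *Dcx*, was also the lowest for this sum. The same library was lowest of the CRE group for the sums of neuron markers (2488 CPM) and of radial glia genes (2250 CPM) as well. It was not lowest for GABA neuron or oligodendrocyte-lineage markers. It also had the most genes with a count of any library, 23738. Of the 20 libraries other than CRE 1-3, CRE 3-3 and RFP 2-4, it had the highest Spearman's rho with GC content (0.31). Its mitochondrial share (6.997%) was the lowest of those 20, and its total of 8923280 counts was the lowest of the 10 CRE libraries compared. The part of these traits in its levels was not tested. The part of astrocyte number in the level of *Sox9* was not tested.

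*Sox2*, the HMG-box factor that maintains neural stem cells, did not differ beyond the spread between libraries. It lies on chromosome 3 from 34704554 to 34706610 (ENSMUSG00000074637), inside the long noncoding *Sox2ot*, with which it shares no exon bases. The opposite-strand noncoding *Gm64654*, which the count tables do not list, shares 1233 (59.9%) of the exon bases of *Sox2*. RFP libraries held between 64.3 and 135 CPM with a median of 100.5, and CRE libraries between 50.4 and 139 with a median of 110.5. The ranges covered each other almost fully. CRE libraries averaged 104 ± 27.3 CPM (SD, n = 10) and RFP libraries 103 ± 21.8 (SD, n = 11), and the ratio of CRE to RFP had a 95% interval from 0.82 to 1.23 (log2 fold change 0.0074, standard error 0.15, edgeR adjusted p = 0.976). Among the libraries left out, CRE 1-3 held 191 and CRE 3-3 250.3 CPM, above every library of the comparison.

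*Emx2* encodes a homeodomain factor that the growing hippocampus depends on. It lies on chromosome 19 from 59446804 to 59453789 (ENSMUSG00000043969). RFP libraries held between 22.6 and 38.7 CPM and CRE libraries between 32.5 and 47.2, with means of 34.0 ± 5.13 (SD, n = 11) and 36.4 ± 5.02 (SD, n = 10), respectively. The groups overlapped, although in culture 2 the 4 CRE libraries (32.5 to 34.0 CPM) lay below the 4 RFP libraries (34.7 to 38.7). The ratio of CRE to RFP lay between 0.93 and 1.24 (log2 fold change 0.10, standard error 0.11, edgeR adjusted p = 0.511). Its log2 ratios of 0.016, -0.15 and 0.45 in cultures 1, 2 and 3 were the least alike among the tested genes by the p of the interaction between group and culture number. That interaction had an unadjusted p of 0.0528 and an edgeR adjusted p of 0.508, and it passed the test for 45 of 14482 genes (0.311%), none of them among the 8 tested here. Exons of *Emx2* share 418 bases with the antisense *Emx2os*, whose own log2 fold change was 0.0013 (edgeR adjusted p = 0.997).

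*Eomes*, the T-box gene of intermediate progenitors, was close to the limit of detection. It lies on chromosome 9 from 118307280 to 118315200 (ENSMUSG00000032446). The 21 libraries held 53 counts of it in CRE and 48 in RFP, and 4 CRE and 3 RFP libraries held none. Its highest counts were 25 in CRE 2-2 and 12 in CRE 3-1 and RFP 1-3. CRE libraries averaged 0.439 ± 0.618 CPM (SD, n = 10) and RFP libraries 0.398 ± 0.345 (SD, n = 11) (permutation test of the means, two-sided, p = 0.861). A change in *Eomes* was therefore not detectable at this depth, and in the sums per culture, where it passed the filter, its log2 fold change was 0.12 (edgeR adjusted p = 0.938).

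*Sox4* and *Sox11* encode the SoxC factors, which act in committed precursors and young neurons. *Sox4* lies on chromosome 13 from 29132902 to 29137696 on the minus strand (ENSMUSG00000076431) and *Sox11* on chromosome 12 from 27384263 to 27392573, also on the minus strand (ENSMUSG00000063632). Their transcripts share the longest identical run of any pair among the 4 *Sox* genes. It is 48 bases long and is shown because reads from near-identical genes could be counted for either of them.
Sox4 and Sox11, shared run in the HMG box: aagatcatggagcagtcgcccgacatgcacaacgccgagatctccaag
The runs shared by the other pairs were between 16 and 24 bases long. Only genes listed in the count tables were searched for 50-base stretches. Among them, no stretch of *Sox2* or *Sox11* occurred in a transcript of another gene, and those of *Sox4* and *Sox9* that did occurred in their antisense partners only.

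*Sox4* held between 152 and 235 CPM in RFP libraries (median 197) and between 146 and 279 in CRE libraries (median 236), so that 6 CRE libraries lay above every RFP library and 1 below. CRE libraries averaged 230.2 ± 41.9 CPM (SD, n = 10) and RFP libraries 196 ± 23.4 (SD, n = 11). The difference stood at a log2 fold change of 0.23 (standard error 0.10, edgeR adjusted p = 0.0566) and did not pass the test over the 21 libraries. It did pass over all 23 libraries (0.49, edgeR adjusted p = 0.0297), where CRE 1-3 with 393 and CRE 3-3 with 612 CPM entered. It also passed when CRE 1-2 (0.25, 0.0476), CRE 2-2 (0.27, 0.0329), CRE 3-2 (0.29, 0.00672) or RFP 2-4 (0.25, 0.0446) was left out, values being log2 fold changes and edgeR adjusted p. Summed per culture it was 0.20 (edgeR adjusted p = 0.162). The opposite-strand *A330102I10Rik*, which shares 907 exon bases with *Sox4*, rose by 1.02 on the log2 scale (edgeR adjusted p = 0.0225), and reads of the pair cannot be told apart unless strand was used in counting.

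*Sox11* held between 71.1 and 136 CPM in RFP libraries and between 92.4 and 148 in CRE libraries. The CRE mean of 119 ± 16.1 CPM (SD, n = 10) and the RFP mean of 111 ± 20.7 (SD, n = 11) differed by less than the spread. The ratio of CRE to RFP lay between 0.93 and 1.23 (log2 fold change 0.10, standard error 0.10, edgeR adjusted p = 0.463).

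*Dcx* encodes doublecortin, a microtubule-associated protein of migrating and newborn neurons, and was the most clearly lowered of the 9 genes. It lies on chromosome X from 142638838 to 142716307 on the minus strand (ENSMUSG00000031285). *Tbr1*, a T-box gene of early-born glutamatergic neurons, lies on chromosome 2 from 61633274 to 61644458 on the plus strand (ENSMUSG00000035033). Their promoters from the RefSeq table (build GRCm38.p6) are shown since both genes fell, with capitals for the same motifs as in *Pax6*. The table has another *Dcx* start whose window overlaps the printed one and held none of the motifs either.
Dcx, chrX:143933170-143933469, minus strand: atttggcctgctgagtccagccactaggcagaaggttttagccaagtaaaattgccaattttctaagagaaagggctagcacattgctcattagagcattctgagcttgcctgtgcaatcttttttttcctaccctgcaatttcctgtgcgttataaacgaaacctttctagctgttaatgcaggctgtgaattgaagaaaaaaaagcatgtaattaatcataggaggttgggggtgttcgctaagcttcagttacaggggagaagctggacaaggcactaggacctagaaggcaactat
Tbr1, chr2:61804203-61804502, plus strand: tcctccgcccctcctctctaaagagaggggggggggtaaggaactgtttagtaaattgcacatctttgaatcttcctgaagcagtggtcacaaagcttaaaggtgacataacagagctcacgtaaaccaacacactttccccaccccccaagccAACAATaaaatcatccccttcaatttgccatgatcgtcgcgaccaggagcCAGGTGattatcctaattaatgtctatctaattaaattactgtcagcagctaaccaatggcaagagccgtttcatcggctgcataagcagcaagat
The *Dcx* window held none of the 4 motifs. The *Tbr1* window held 1 match to the Sox core, AACAAT, found in 10.7% of promoters, and 1 E-box. These are letters in a window of 300 bases and say nothing of a factor's binding.

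RFP libraries held between 184 and 473.5 CPM of *Dcx* with a median of 328, and CRE libraries between 118 and 206 with a median of 170.1. All RFP libraries except RFP 2-4 lay above every CRE library. Mean *Dcx* was 335 ± 76.8 CPM (SD, n = 11) with RFP and 169.8 ± 27.1 (SD, n = 10) with CRE, 1.97-fold higher with RFP, the log2 fold change being -0.98 (standard error 0.12, edgeR adjusted p = 2.5e-07). Within cultures 1, 2 and 3 the log2 ratio was -0.92, -0.70 and -1.31, and the groups overlapped in culture 2 alone, through RFP 2-4. Summed per culture it was -1.03 (edgeR adjusted p = 2.88e-04).

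The libraries whose levels rose with GC content held the least *Dcx* of their groups: 18.7 CPM in CRE 1-3, 68.9 in CRE 3-3 and 184 in RFP 2-4. The longest *Dcx* transcript has a GC content of 40.6%, the lowest of the 9 genes, whose others ran from 46.5% to 53.7%. With each library's GC trend removed the log2 fold change was -0.996 (edgeR adjusted p = 1.43e-09), and without RFP 2-4 it was -1.04 (edgeR adjusted p = 4.05e-09). Over all 23 libraries it was -1.17 (edgeR adjusted p = 4.54e-04).

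*Tbr1* was lowered by less, with overlapping groups. RFP libraries held between 44.2 and 87.8 CPM with a median of 55.9, and CRE libraries between 40.0 and 58.3 with a median of 46.8. Mean *Tbr1* was 59.5 ± 13.2 CPM (SD, n = 11) with RFP and 47.4 ± 5.42 (SD, n = 10) with CRE, and the log2 fold change was -0.33 (standard error 0.11, edgeR adjusted p = 0.0174). The log2 ratio was -0.20, -0.44 and -0.31 in cultures 1, 2 and 3, with overlap in each, and -0.38 summed per culture (edgeR adjusted p = 0.0264). RFP 2-4 held the most *Tbr1* of the RFP libraries, and without it the log2 fold change was -0.26 (edgeR adjusted p = 0.0371). This call depended on the libraries. It was lost over all 23 libraries (-0.14, edgeR adjusted p = 0.536), where CRE 1-3 held 80.0 and CRE 3-3 99.6 CPM, and over the libraries of the supplement's count table (-0.30, edgeR adjusted p = 0.0884), with scaling by library totals alone (-0.23, 0.152) and without culture 2 (-0.26, 0.166).

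**Figure D2:**
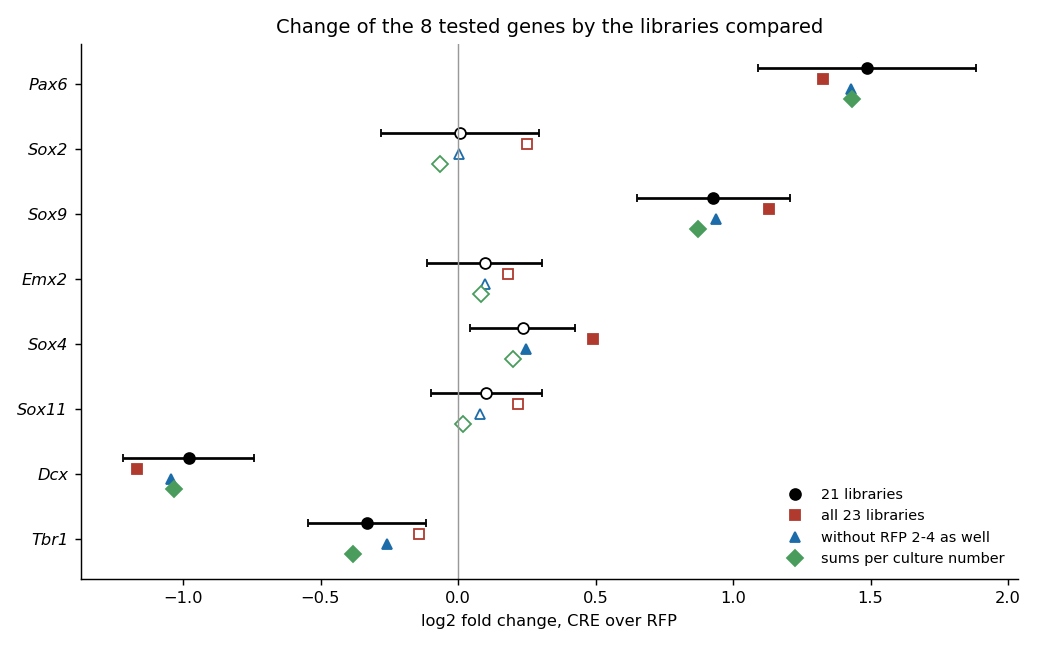
Log2 fold change from RFP to CRE (horizontal axis) of the 8 tested genes over 4 sets of libraries, with filled symbols for an edgeR adjusted p under 0.05 and bars for the 95% interval over the 21 libraries. *Pax6*, *Sox9* and *Dcx* are filled in all 4 sets, at 1.33 to 1.49, 0.87 to 1.13 and -1.17 to -0.98, whereas *Tbr1* is open over all 23 libraries and *Sox4* is filled in 2 sets.

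Per kilobase of exon, the level in RFP libraries was highest for *Sox2* (median 48.8 CPM per kb) and *Sox4* (41.1), followed by *Dcx* (25.9), *Sox9* (17.8), *Sox11* (13.6), *Emx2* (11.7), *Tbr1* (10.2), *Pax6* (0.518) and *Eomes* (0.100). Ranges over the RFP libraries overlapped between neighbours in this order, except between *Tbr1* (8.06 to 16.01) and *Pax6* (0.283 to 0.832) and between *Pax6* and *Eomes* (0 to 0.218). In CRE libraries *Sox9*, at a median of 31.4 CPM per kb, stood above *Dcx*, at 13.5, and their ranges of 19.5 to 41.5 and 9.35 to 16.3 did not overlap. *Pax6* reached 1.53 CPM per kb there, below all the other genes but *Eomes*.

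**Figure D3:**
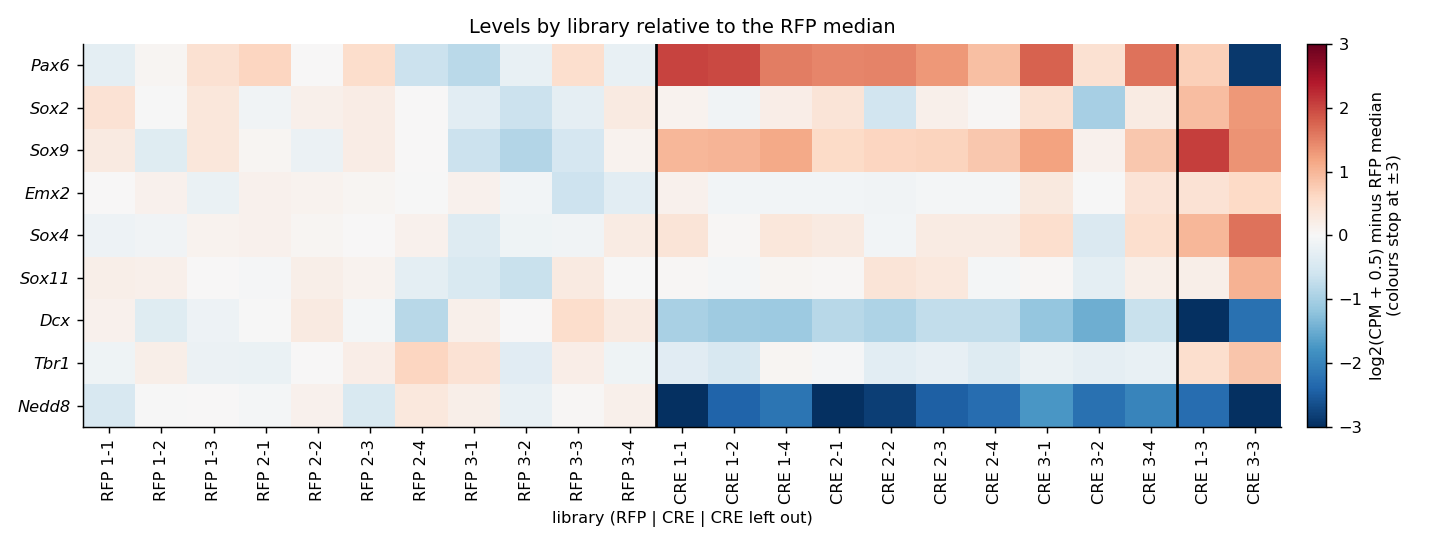
Level of 8 of the genes and of *Nedd8* in each library as log2(CPM + 0.5) minus the median of the RFP libraries, red above and blue below it, with vertical lines between RFP, CRE and the left-out CRE libraries. *Pax6* and *Sox9* are red and *Dcx* blue along the 10 CRE libraries compared, CRE 3-2 is paler for *Pax6* and *Sox9*, and RFP 2-4 is blue for *Dcx*.

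Variation among libraries of the same group linked some of the 9 genes. With group means removed, *Sox2* correlated with *Sox4* (Pearson's r 0.79 over 21 libraries) and *Sox9* (0.78), *Sox4* with *Sox9* (0.65) and *Pax6* with *Sox9* (0.51). By rank these pairs were less alike, at a Spearman's rho of 0.62, 0.72, 0.51 and 0.43 in the same order. Values given for other genes below are Pearson's r. These values describe libraries that share cultures, depth and GC trend. Among 11483 genes with a mean of at least 5 CPM, the patterns most like those of the 4 genes that passed the test were *Cdh11* (0.80) and *Col11a1* (0.77) for *Pax6*, *AW047730* (0.89) and *Zcchc24* (0.88) for *Sox9*, *Cxadr* (0.86) and *Plcb1* (0.85) for *Dcx*, and *Fbxo21* (0.78) and *Pwp2* (0.76) for *Tbr1*. For the others they were *Tlcd1* (0.88) and *Ildr2* (0.87) for *Sox2*, *Gm19554* (0.84) and *Iqcb1* (0.73) for *Emx2*, *Gprin3* (0.87) and *Aplp2* (0.87) for *Sox4*, and *Lpl* (0.80) and *Rftn1* (0.78) for *Sox11*. Likeness within groups did not mean a like change between them: *Cdh11*, a cadherin, had a log2 fold change of -0.52 (edgeR adjusted p = 5.78e-04), and *Col11a1*, a fibrillar collagen chain, of 1.53 (edgeR adjusted p = 2.87e-06).

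Other genes of the same developmental steps were followed as lists. Of all tested genes, 20.2% were higher and 17.8% lower over the 21 libraries. The share called either way was 28.2% over all 23 libraries and 30.2% over those of the supplement's count table. Of 20 radial glia and neural stem cell genes, all tested, 7 were higher and 4 lower, with a median log2 fold change of 0.11 beside 0.02 over all tested genes. The highest were the intermediate filament gene *Nes* (124 ± 17.3 CPM in RFP, n = 11, and 917 ± 245 in CRE, n = 10, log2 fold change 2.89, edgeR adjusted p = 4.3e-15) and the stem cell surface gene *Prom1* (1.48, 0.014). The lowest were the Notch target *Hes5* (11.6 ± 6.49 CPM in RFP, n = 11, and 1.26 ± 0.477 in CRE, n = 10, log2 fold change -3.19, edgeR adjusted p = 4.04e-08) and *Emx1*, the paralog of *Emx2* (-0.99, 0.00204). Radial glia genes thus moved in both directions, with 6 higher and 3 lower over all 23 libraries and over those of the supplement's count table. The summed level of the list ran from 2250 to 5463 CPM in CRE and from 2402 to 4328 in RFP libraries.

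Of 10 genes of intermediate progenitors and neurogenic commitment, 7 were tested, 1 rose and 5 fell, with a median of -0.59. *Gadd45g*, a growth arrest gene, rose (log2 fold change 1.15, edgeR adjusted p = 2.27e-05), while the Notch ligand *Dll3* (-2.36, 0.00296) and the proneural *Neurog2* (-1.47, 0.0136) fell lowest. This count depended on the libraries, with 1 rise and 1 fall over all 23. Of 18 immature neuron genes, the class that *Dcx* belongs to, 13 fell and none rose, with a median of -0.59, while 11 fell over all 23 libraries and 14 over those of the supplement's count table. They were led by *Calb2*, a calcium-binding protein of young granule cells (-1.56, edgeR adjusted p = 3.9e-05), and *Igfbpl1* (-0.98, 0.0217), while their summed level ran from 4639 to 7210 CPM in CRE and from 7135 to 10675 in RFP libraries. Of 17 transcription factors of excitatory neurons, the class of *Tbr1*, 12 fell and 1, *Tle4*, rose (0.36, edgeR adjusted p = 0.0351), with a median of -0.57. *Neurod6* (-1.82, 3.66e-08) and *Neurod2* (-1.48, 1.22e-10), bHLH factors of glutamatergic neurons, were the lowest. Over all 23 libraries 6 of the 17 fell and none rose.

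The nearest relatives of the 9 genes were counted too, beside the 37.9% of all tested genes that were called. These lists are too short to set their counts apart from that share. Among 15 other *Sox* genes, 10 were tested, none rose and 2 fell, *Sox10*, a factor of the oligodendrocyte lineage (log2 fold change -2.87, edgeR adjusted p = 0.0105), and *Sox8* (-1.46, 6.4e-05), with a median of 0.12. Over all 23 libraries 2 of this list rose and 2 fell. Of 9 other *Pax* and *Emx* genes, *Pax1* and *Emx1* alone passed the filter, and *Emx1* fell, a call that was lost over all 23 libraries. Of 6 relatives and partners of doublecortin, all tested, only the doublecortin-like kinase *Dclk1* passed the test over the 21 libraries, from 907 ± 74.8 CPM (SD, n = 11) to 642.5 ± 44.4 (SD, n = 10), by -0.50 on the log2 scale (edgeR adjusted p = 4.64e-07). Without RFP 2-4, and with the GC trend removed, 2 of the 6 were called lower, *Dclk1* and *Pafah1b1*, a partner of dynein.

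**Figure D4:**
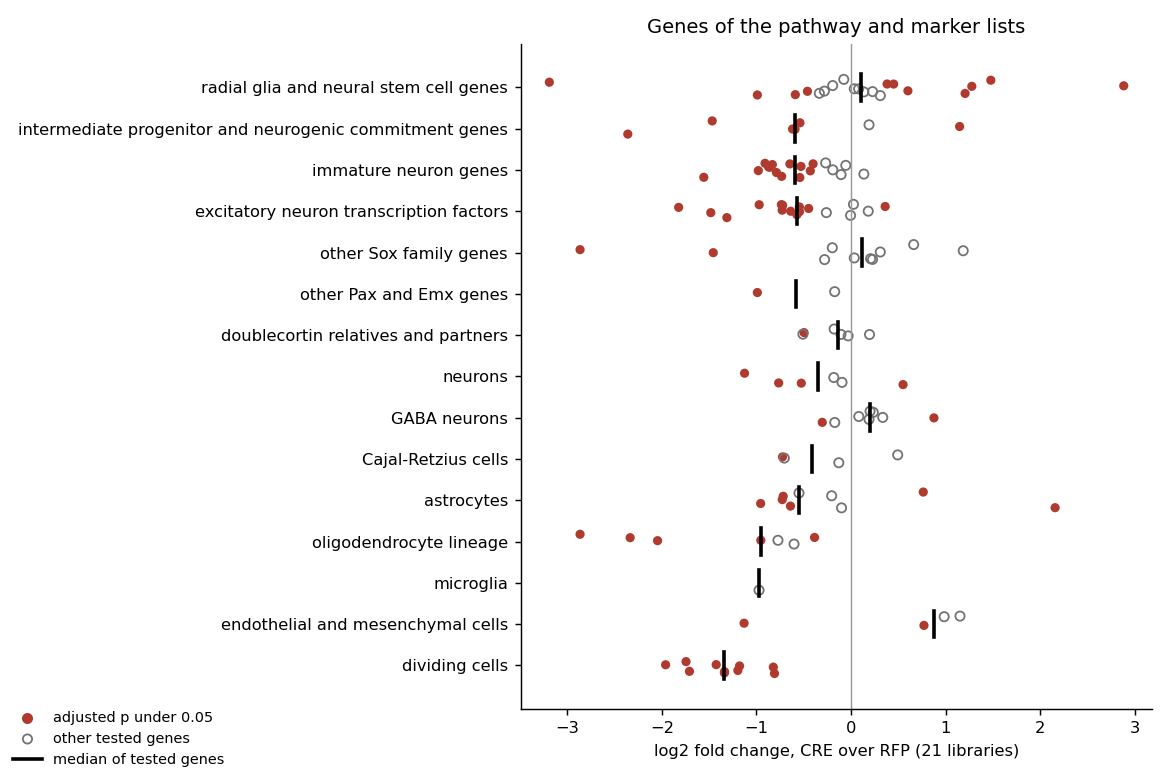
Log2 fold change from RFP to CRE over the 21 libraries (horizontal axis) for each tested gene of 15 lists, filled red where the edgeR adjusted p was under 0.05, with a black bar at the median of the list. The immature neuron, excitatory factor and dividing cell lists lie to the left with medians of -0.59, -0.57 and -1.34, while radial glia genes spread from -3.19 to 2.89.

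Markers of the cells that such a culture can hold moved as well. Beside their counts here and in the next paragraph stand the shares of all tested genes called. These were 37.9% over the 21 libraries (20.2% higher, 17.8% lower) and 28.2% over all 23. Of 6 neuron markers, 3 fell (*Rbfox3*, *Map2* and *Syt1*, log2 fold changes -1.13, -0.53 and -0.77) and *Nefm* rose (0.55), and their summed level was 2488 to 4213 CPM in CRE and 3622 to 4998 in RFP libraries. All 10 genes of dividing cells fell, with a median log2 fold change of -1.34, from 151 to 335 CPM in sum in RFP libraries to 39.8 to 204 in CRE libraries. Of 7 oligodendrocyte-lineage genes 5 fell (*Olig1*, *Olig2*, *Pdgfra*, *Cspg4* and *Sox10*), their sum running from 424 to 1006 CPM in CRE and from 581 to 1866 in RFP libraries, and 4 fell over all 23 libraries. Of 8 GABA neuron markers *Dlx5* rose (0.88) and *Gad2* fell (-0.30), while over all 23 libraries 2 rose and none fell, with sums of 947 to 1766 and 966 to 1921 CPM in CRE and RFP libraries.

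Microglia and vessel cells left little RNA. Of 6 microglia markers only *Csf1r* passed the filter. *Cx3cr1*, *C1qa*, *C1qb* and *Aif1* never exceeded 11 counts in a library, while *P2ry12* reached 62. The list summed to 0.171 to 4.35 CPM in CRE and 1.02 to 6.56 in RFP libraries. Of 6 endothelial and mesenchymal markers *Pdgfrb* rose (0.77) and *Kdr* fell (-1.13), with *Col1a1* as another rise over all 23 libraries and with the culture number as a block, *Cldn5* never exceeded 3 counts, and sums were 12.2 to 145 CPM in CRE and 10.9 to 69.2 in RFP libraries. Of 7 genes of Cajal-Retzius cells, early *Tbr1*-expressing neurons, *Ndnf* fell (-0.72), and *Lhx5*, *Lhx1* and *Ebf3* failed the filter. *Trp73* averaged 2.98 ± 2.11 CPM (SD, n = 10) with CRE and 2.11 ± 1.28 (SD, n = 11) with RFP. Sums were 100.1 to 361 CPM in CRE and 165 to 664 in RFP libraries, of which *Reln*, averaging 166 and 271 CPM, made the largest part. The call of *Ndnf* was lost over the libraries of the supplement's count table, and over all 23 libraries 2 of the list fell, *Ndnf* and *Reln*. The part of any of these cell types in the changes of *Pax6*, *Sox9*, *Dcx* and *Tbr1* was not tested.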

How the data were processed

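Primary hippocampal cultures of Nedd8cKO pups gave 23 RNA libraries (Illumina Stranded mRNA kit). The authors deposited raw read counts per gene, 1 table per library, and the submitters' processing notes name bcl2fastq (version 2.20.0.422), STAR (2.7.8a), featureCounts (1.5.0-p1) and the build GRCm39. The strand setting of the counting is not given in the sources used here, and reads that match several genes can be lost or misplaced. Gene names came from the GRCm39 annotation, which named 56323 of 56941 genes holding 99.95% of counts, and 33025 genes had a count. No pair of libraries was identical.

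CRE and RFP libraries were compared in R 4.3.3 with edgeR 4.0.16 (filterByExpr, TMM factors, robust quasi-likelihood test). P-values were adjusted by Benjamini-Hochberg across every tested gene, and a call needed an adjusted p under 0.05. The samples were those of the study's Methods, 10 CRE and 11 RFP libraries, with median totals of 11361630 and 10943847 counts. The labels do not tell in words what the first number in a sample name stands for; it was read as a culture. P-values measure the spread between libraries, which may be partly technical. CPM used TMM factors from 14382 genes, those that the same filter kept when run on all 23 libraries. *Eomes*, below the filter, was compared by a permutation test of 100000 resamples (SciPy 1.17.1). Likeness was the Pearson correlation of log2(CPM + 0.5), group means removed. Promoter motifs were searched as letters on both strands in RefSeq sequences of GRCm38.p6, which held 10 promoters for 8 of the 9 genes. Scripts were tested on simulated data.

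The genes, the lists and the tests were chosen with earlier results of these data known. Named genes were the 9 genes and *Nedd8*, up to 2 called genes at each end of each gene list, called or near-absent genes of each marker list, the 2 most alike genes, and genes overlapping exons of the 9. *Prox1*, *Zbtb20*, *Pafah1b1*, *Reln*, *Col1a1* and *P2ry12* were named in addition, after their values had been seen. Alternatives were other sets of libraries, DESeq2 1.42.0, limma-voom (limma 3.58.1), other scalings, no filter, blocks, sums per culture and removal of each library's GC trend. The GC trend removed over all 23 libraries was added after seeing the data.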

Additional observations from a re-analysis of the deposited data

Results flagged for a closer look

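CRE 1-3 and CRE 3-3, which the comparison left out, held more of several of the 9 genes than any RFP library did. In CRE 1-3 this applied to *Pax6* at 13.89 CPM, *Sox2* at 191.4, *Sox9* at 314.7, *Emx2* at 47.41 and *Sox4* at 392.6. In CRE 3-3 it applied to *Sox2* at 250.3 CPM, *Sox9* at 191, *Emx2* at 53.88, *Sox4* at 611.8, *Sox11* at 234.6 and *Tbr1* at 99.58. Only values above the highest RFP library were flagged. CRE 1-3 and CRE 3-3 lay below every RFP library for *Dcx*, at 18.7 and 68.9 CPM, and CRE 3-3 did so for *Pax6*, at 0.68 CPM. Both libraries also had levels that rose with GC content, and its part in these values was not tested. No library of the CRE group stood far from the other 9 in any of the genes by Dixon's test, and the 11 RFP libraries were not tested that way.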

How the results depend on the processing

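In all, 40 alternatives were run: 21 left out a library, 3 left out a culture number and 16 changed another choice. The fit without RFP 2-4 is counted both among the 21 and among the 16. *Pax6*, *Sox9*, *Dcx* and *Nedd8* kept direction and call in each. The log2 fold change of *Tbr1* lost its call over all 23 libraries (-0.14), over the libraries of the supplement's count table (-0.30), with library totals only (-0.23) and over all 23 libraries with the GC trend removed (-0.26), and only 1 gene of the 9 was then called lower. The log2 fold change of *Sox4* gained a call over all 23 libraries (0.49), without RFP 2-4 (0.25), with library totals only (0.34) and over all 23 libraries with the GC trend removed (0.39). *Sox2*, not called in any, changed sign without RFP 2-4 and RFP 3-2 (-0.075), in DESeq2 (-0.0049), in limma-voom (-0.032), with DESeq2 size factors (-0.0054) and upper quartile factors (-0.0026), in sums per culture (-0.064) and with the GC trend removed (-0.022). Over all genes, 1692 were called lower over all 23 libraries and 4723 higher with no filter on low counts. The cause of these shifts was not tested.

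Leaving out a library or a culture number gave log2 fold changes of 1.32 to 1.71 for *Pax6*, 0.73 to 1.10 for *Sox9*, -1.15 to -0.84 for *Dcx*, -2.65 to -2.25 for *Nedd8*, -0.41 to -0.26 for *Tbr1*, 0.14 to 0.32 for *Sox4*, 0.012 to 0.19 for *Sox11*, -0.13 to 0.25 for *Emx2* and -0.16 to 0.090 for *Sox2*. Genes called ran from 3727 to 5521, and from 3 to 5 of the 9, with 1 to 2 lower and 2 to 3 higher. *Tbr1* lost its call without culture 2.

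Deviations of libraries with the same culture number correlated at 0.19, 0.22 and 0.086 between the groups, and those with unlike numbers at -0.17 to -0.047. Each CRE culture thus resembled its own number most, by small correlations. Deviations were taken from each group's mean, so the values for like and unlike numbers are not independent. By library number, the correlations between the groups were 0.11, 0.17, -0.015 and -0.055 for numbers 1, 2, 3 and 4. Whether libraries with the same number share a culture was not tested. The main comparison did not pair the numbers. With the culture number as a replicate block, *Pax6* was at 1.46, 5657 genes and 4 of the 9 were called. With the library number as a replicate block these were 1.62, 5287 and 4, and *Sox2* was at -0.018. With the culture block and the GC trend removed *Sox2* was at -0.022.

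*Eomes*, with at least 10 counts in 3 of 21 libraries, failed the filter, as did 5 of 15 other *Sox* and 7 of 9 other *Pax* and *Emx* genes. *Eomes* also had the lowest level per kilobase of the 9 genes. Whether more depth would show a change in the genes that failed the filter was not tested.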
